A study of Mus musculus with 3 samples.

Results

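Cluster 13 is a small group of cells in the authors' clustering of single-cell expression profiles from sorted thymocytes, 83 of 12208 cells. Its members are all cells that the deposited metadata assign to cluster 13, split by the sorted population that each cell's hashtag names. It joined cells with the hashtags of different sorted stages: 42 carried the hashtag of CD25+ Treg progenitors (TRP) and 38 that of CD4+CD8+ double-positive (DP) thymocytes. Cells are named here by hashtag, and their identity was not checked with marker genes. The CD25+ TRP cells of the cluster held many transcripts and rarely gave a T cell receptor (TCR) α chain. All 14 DP cells of the cluster with a single productive α chain used a TRAJ segment numbered 40 or higher. So did 82.2% of such DP cells in cluster 11, with overlapping intervals, and 29.6% of all those outside cluster 13.

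The cells came from 1 pool of thymocytes of 8 female mice aged 7 to 12 weeks, which all carried the TCliβ transgene for a fixed TCRβ chain, TCRα+/- and a Foxp3-GFP reporter. Sorting gave 6 populations, each with a hashtag of its own. They were DP cells, CD25+ TRP cells, the Foxp3lo TRP, which are the other Treg progenitors, CD4 single-positive (CD4 SP) cells, and regulatory T cells (Treg) without CD73 (CD73-) or with it (CD73+). All were gated on surface Vα2, which the TRAV14 gene family encodes, and CD8+ cells were depleted before the sort of every population except DP. There was 1 sorted sample of each population and no label that ties a cell to a mouse, so no test between groups was possible. Shares have exact Clopper-Pearson 95% intervals, given after each share, and these cover counting error only. Across the whole matrix 34190869 unique molecular identifiers (UMIs) were counted. The gene rows as used here carry no names, so the hashtag labels could not be checked against marker genes, and the cluster stays a number.

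DP thymocytes rearrange the Tcra locus, whose many TRAJ segments lie in a row between the TRAV genes and the constant gene TRAC. Rearrangement starts at the TRAJ segments nearest the TRAV genes, which carry the highest numbers, and later rounds replace the first join with one nearer to TRAC. The TRAJ number of a DP cell thus reads how far along the locus its current join lies. CD25+ TRP cells are later CD4+ thymocytes on the way to the regulatory T cell fate and have normally finished this process.

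The α chains of the cluster are few, and its TRAJ use rests on them, so the CDR3 bases of those discussed are printed here, from the deposited contigs. Capitals mark the bases that match the TRAJ segment in GRCm38, and lower case the TRAV part and any bases between. Chains 1 to 6 are all TRAJ58 chains of the DP cells, chains 11 and 14 have no base between the V and J matches, and chains 17 and 18 are the only chains of its CD25+ TRP cells.
chain 1, DP, TRAV14-2 and TRAJ58: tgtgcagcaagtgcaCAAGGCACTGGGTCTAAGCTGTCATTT
chain 2, DP, TRAV14-3 and TRAJ58: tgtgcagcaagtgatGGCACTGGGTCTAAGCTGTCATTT
chain 3, DP, TRAV14-3 and TRAJ58: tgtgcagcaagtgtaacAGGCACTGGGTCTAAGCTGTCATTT
chain 4, DP, TRAV14-3 and TRAJ58: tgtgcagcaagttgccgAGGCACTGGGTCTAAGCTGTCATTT
chain 5, DP, TRAV14-3 and TRAJ58: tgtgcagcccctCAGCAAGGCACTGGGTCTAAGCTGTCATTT
chain 6, DP, TRAV14N-2 and TRAJ58: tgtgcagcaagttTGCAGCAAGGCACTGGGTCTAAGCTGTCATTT
chain 11, DP, TRAV14N-1 and TRAJ50: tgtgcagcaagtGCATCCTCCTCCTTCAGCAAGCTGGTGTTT
chain 14, DP, TRAV14N-1 and TRAJ40: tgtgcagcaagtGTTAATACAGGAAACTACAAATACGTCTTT
chain 17, CD25+ TRP, TRAV14-3 and TRAJ44: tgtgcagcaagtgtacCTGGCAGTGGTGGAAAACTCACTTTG
chain 18, CD25+ TRP, TRAV14N-2 and TRAJ27: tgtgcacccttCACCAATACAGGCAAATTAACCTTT

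All these segments are annotated as TCR J genes on the plus strand of chromosome 14 (GRCm38). TRAJ58, the first of them from the TRAV side, lies at chr14:54157280-54157342, TRAJ50 at chr14:54167590-54167652 and TRAJ40 at chr14:54177921-54177981. TRAJ44 lies at chr14:54173690-54173750 and TRAJ27, nearer to TRAC, at chr14:54192303-54192361. TRAC itself spans chr14:54220521-54224206, and TRAV14-3, the TRAV14 copy closest to the J segments, spans chr14:53763173-53763694.

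Cluster 13 was made up almost wholly of CD25+ TRP and DP cells. The 42 CD25+ TRP cells were 50.6% of the cluster (39.4 to 61.8) and the 38 DP cells 45.8% (34.8 to 57.1). A further 2 cells were CD73+ Treg (2.41%, 0.293 to 8.43) and 1 was Foxp3lo TRP (1.20%, 0.0305 to 6.53). None of 2436 CD4 SP cells lay in the cluster, which allows a share of up to 0.123% of them. The cluster also had 0 of 454 cells of the CD73- Treg, for a limit of 0.661%. Read the other way, the cluster held 1.68% of all 2503 CD25+ TRP cells (1.21 to 2.26) and 1.26% of all 3021 DP cells (0.892 to 1.72). Its share of the CD73+ Treg population was 0.0833% (0.0101 to 0.301) and that of the Foxp3lo TRP population 0.0718% (0.00182 to 0.399). Without the 5% of cells with the most UMIs in each population, these shares were 1.09% of CD25+ TRP cells and 1.08% of DP cells. The intervals of the CD25+ TRP and DP shares overlapped each other and lay above those of the other 4 populations.

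The cluster's cells were deep, and its CD25+ TRP cells deeper than its DP cells. The median over the cluster was 3950 UMIs per cell, the third highest of the 15 clusters, after 6079 in cluster 11 and 4281 in cluster 7. Its CD25+ TRP cells had a median of 6245 UMIs (range 1396 to 18959), against 3228 in the 2461 CD25+ TRP cells of other clusters, among which those of cluster 11 had 6691. Of these 42 cells, 16 exceeded 7749.8 UMIs, the 95th percentile of the CD25+ TRP population, which 126 of its cells exceeded in all. Its DP cells had a median of 2616 UMIs (range 956 to 4610). The DP medians were 1545 in cluster 4, 1592 in cluster 6, 1087 in cluster 8 and 5542 in cluster 11. The DP cells of cluster 13 thus sat between the main DP clusters and cluster 11, and 7 of the 38 exceeded the DP population's 95th percentile of 3381 UMIs.

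**Figure D1:**
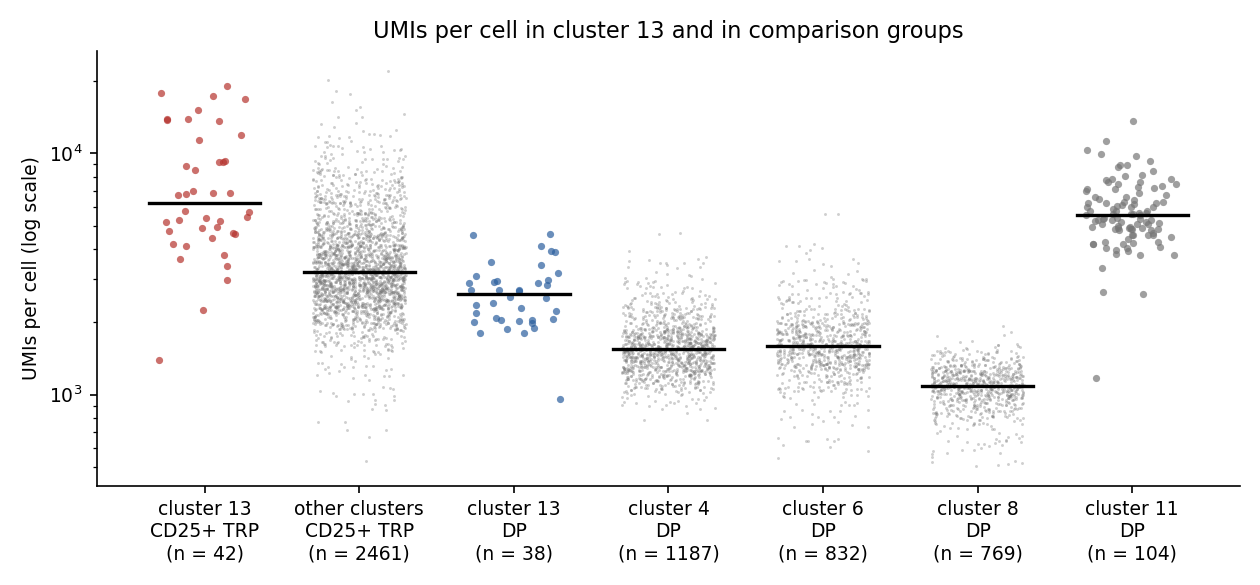
UMIs per cell on a log scale for the CD25+ TRP and DP cells of cluster 13 (colored) and for comparison groups (grey); each point is a cell and each bar the median. The CD25+ TRP cells of cluster 13 have a median of 6245 UMIs and its DP cells 2616, against 3228 in the other CD25+ TRP cells and 1545, 1592, 1087 and 5542 in the DP cells of clusters 4, 6, 8 and 11.

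Gene number followed depth. Detected genes had a median of 2193 in the CD25+ TRP cells of cluster 13 and 1392 in those of other clusters. The DP cells had 1289 in cluster 13, 961 in cluster 4, 968.5 in cluster 6, 760 in cluster 8 and 2185 in cluster 11. When each cell was thinned to 1000 UMIs, which leaves out shallower cells, the CD25+ TRP median was 596.5 genes in cluster 13 (42 cells) and 596 elsewhere (2446 cells). The DP median at this depth was 665 genes in cluster 13 (37 cells), against 685 in cluster 4, 682 in cluster 6, 713 in cluster 8 and 663.5 in cluster 11. The numbers of DP cells left out were 1 in cluster 13, 26 in cluster 4, 43 in cluster 6, 242 in cluster 8 and 0 in cluster 11. At equal depth the gene number of the CD25+ TRP cells was level with that of their population, and that of the DP cells lay near cluster 11 and below clusters 4, 6 and 8. At 500 UMIs, which leaves out no cell, the DP median was 384.5 genes in cluster 13 (382 to 391), with an interval that overlapped those of cluster 4 (391, 390 to 392) and cluster 6 (390, 388 to 391). No cell was removed for its depth, and how the submitters treated doublets is not given in the sources used here. What part droplets with more than 1 cell play in these depths was not tested.

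A TCRα chain was rarely recovered in the CD25+ TRP cells of cluster 13. Exactly 1 productive α chain was assembled in 2 of 42 of them (4.76%, 0.582 to 16.2), against 1781 of 2461 CD25+ TRP cells elsewhere (72.4%, 70.6 to 74.1). Over the 8 other clusters with at least 20 CD25+ TRP cells, recovery ran from 66.2% to 82.9%. Recovery was as low at matched depth. Within the interquartile range of the cluster's CD25+ TRP cells (4702.5 to 10821.2 UMIs), recovery was 1 of 20 cells (5%, 0.127 to 24.9), against 328 of 468 cells elsewhere (70.1%, 65.7 to 74.2). β contigs, which were not enriched for in these libraries, were found in 2 of the 42 cells (4.76%, 0.582 to 16.2) and in 535 of the 2461 others (21.7%, 20.1 to 23.4). Any TCR contig at all was found in 3 of the 42 cells (7.14%, 1.498 to 19.5) and in 75.7% of the others (74.0 to 77.4). The 2 cells that did give an α chain had 15032 UMIs (chain 17, TRAJ44) and 8494 UMIs (chain 18, TRAJ27).

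α chains were recovered more often in the DP cells of cluster 13 than in its CD25+ TRP cells, with intervals apart. Recovery was 14 of 38 (36.8%, 21.8 to 54.0), against 29.4% in cluster 4 (26.8 to 32.1), 69.7% in cluster 6 (66.5 to 72.8), 27.8% in cluster 8 (24.7 to 31.1) and 43.3% in cluster 11 (33.6 to 53.3). The interval of cluster 13 overlapped those of clusters 4, 8 and 11 and lay below that of cluster 6. Among DP cells with 2049 to 2968 UMIs, the interquartile range of cluster 13, recovery was 8 of 18 in cluster 13 (44.4%, 21.5 to 69.2), 36.7% in cluster 4 (29.2 to 44.7) and 80.3% in cluster 6 (72.0 to 87.1). A β contig was found in 9 of the 38 DP cells (23.7%, 11.4 to 40.2), against 11.04% in cluster 4, 21.4% in cluster 6, 4.42% in cluster 8 and 47.1% in cluster 11. In all, cluster 13 had 20 of the 7379 cells with any contig, with 18 α, 19 β and 1 δ contig. Of the 19 β contigs, 11 were assigned TRBV19, 1 TRBV16 and 7 no V gene.

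**Figure D2:**
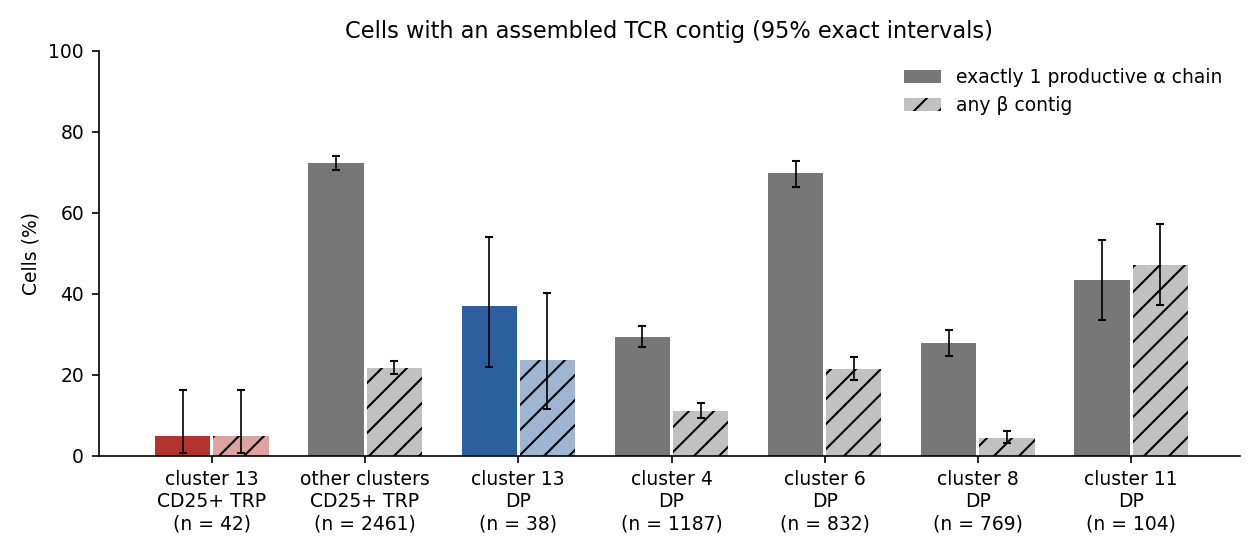
Percent of cells with exactly 1 productive α chain (solid bars) and with any β contig (hatched bars) in cluster 13 (colored) and in comparison groups (grey), with exact 95% intervals. The CD25+ TRP cells of cluster 13 reach 4.76% on both, against 72.4% and 21.7% in the CD25+ TRP cells of other clusters.

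In cluster 13, DP cells had α chains joined at the TRAV end of the J segments. All 14 used TRAJ40 or higher (100%, 76.8 to 100), with segment numbers 58 in 6 cells, 57 in 2, 50 in 2, and 56, 53, 45 and 40 in 1 cell each. In cluster 11 the share was 82.2% (37 of 45, 67.9 to 92.0), in cluster 4 53.9% (188 of 349, 48.5 to 59.2), in cluster 6 21.7% (126 of 580, 18.4 to 25.3) and in cluster 8 4.67% (10 of 214, 2.26 to 8.43). The interval of cluster 13 overlapped that of cluster 11 and lay apart from those of clusters 4, 6 and 8. The median TRAJ number was 57 in cluster 13 (range 40 to 58), 53 in cluster 11, 40 in cluster 4, 26 in cluster 6 and 17 in cluster 8.

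**Figure D3:**
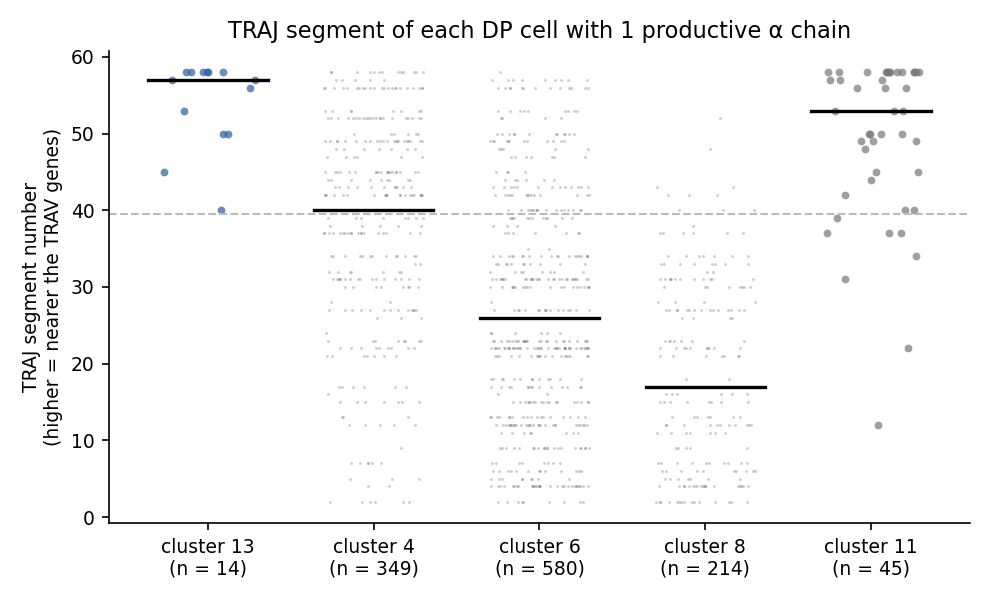
TRAJ segment number of every DP cell with exactly 1 productive α chain, for clusters 13 (blue), 4, 6, 8 and 11 (grey); each point is a cell, each bar the median, and the dashed line the limit below TRAJ40. All 14 cells of cluster 13 lie above the line with a median of 57, and the medians of the others are 40, 26, 17 and 53.

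A stricter limit gave the same order. TRAJ48 or higher was used by 12 of the 14 cells of cluster 13 (85.7%, 57.2 to 98.2), against 68.9% in cluster 11, 30.4% in cluster 4, 11.2% in cluster 6 and 0.935% in cluster 8. The share of TRAJ40 or higher was also taken at matched depth for clusters 4 and 6. Among DP cells with 2049 to 2968 UMIs it was 8 of 8 in cluster 13 (63.1 to 100), 67.2% in cluster 4 (53.7 to 79.0) and 43.6% in cluster 6 (33.4 to 54.2). The share in cluster 6 was above its value over all depths, with intervals apart, and in cluster 4 the intervals overlapped. At this depth the interval of cluster 13 overlapped that of cluster 4 and not that of cluster 6, and the part of depth in the difference from cluster 4 was not tested further.

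TRAJ58 was the segment most used. It was joined in 6 of the 14 cells of cluster 13 (42.9%, 17.7 to 71.1), against 14 of 45 in cluster 11 (31.1%, 18.2 to 46.6), 3.72% in cluster 4 (2.00 to 6.29) and 0.172% in cluster 6 (0.00437 to 0.957). None of 214 chains of cluster 8 used it, which allows up to 1.40%. The cluster's 6 cells were part of the 34 TRAJ58 cells among all 1266 DP cells with a single α chain. On the V side, 7 of the 14 chains used TRAV14-3 (50%, 23.0 to 77.0), against 26.7% in cluster 11 (14.6 to 41.9), 26.4% in cluster 4 (21.8 to 31.3), 7.24% in cluster 6 (5.27 to 9.66) and 0.935% in cluster 8 (0.113 to 3.34). The TRAV14D copies, which lie further from the J segments, were used by 0 of the 14 chains, which allows up to 21.4%, against 4.44% in cluster 11, 7.45% in cluster 4, 30.5% in cluster 6 and 18.7% in cluster 8. The TRAV14N copies were used by 5 of the 14 (35.7%, 12.8 to 64.9). Their share was 20% in cluster 11, 21.5% in cluster 4, 25.7% in cluster 6 and 52.8% in cluster 8. TRAV14 copies are near-identical in sequence, so the assignment of a chain to 1 copy is uncertain.

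The junctions were of the same length as elsewhere. The CDR3 of the 14 cells had a median of 42 bases, as in each of clusters 4, 6, 8 and 11, with 29 matching J (24 to 34), 12 matching V (8 to 13) and 2.5 between (0 to 6), while the bases between had medians of 3 or 4 in those clusters. Of the 16 productive α chains of the DP cells, which include 2 from a cell with 4610 UMIs, all differed in sequence. Chains 11 and 14, printed above, had no base between V and J, and the same bases were found in 4 and in 3 other cells of the matrix. The CDR3α amino acid sequence was found in another cell for 3 of the 14 (21.4%, 4.66 to 50.8), against 20% in cluster 11 (9.58 to 34.6), 34.1% in cluster 4, 50.5% in cluster 6 and 32.7% in cluster 8. The contigs rested on a median of 18.5 UMIs (7 to 32), against 40 in cluster 11, 13 in cluster 4, 14 in cluster 6 and 10 in cluster 8.

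Summed expression placed the DP cells of cluster 13 nearest to cluster 4. The distance used is the root-mean-square log2 ratio of summed UMIs, scaled to 1000000 UMIs per group (CPM) plus 1. It runs over the rows that reach 50 CPM in either of the groups, less the part that counting error alone would give. Because the authors made the clusters from these genes, the distances are a description. The DP cells of cluster 13 were 0.78 from cluster 4 (counting interval 0.76 to 0.81), 0.98 from cluster 8 (0.96 to 1.01), 1.02 from cluster 6 (1.00 to 1.05) and 1.39 from cluster 11 (1.37 to 1.41). The counting intervals of clusters 8 and 6 overlapped, and those of clusters 4 and 11 lay apart from the rest. The part subtracted was 0.59 to 0.63, since the 38 cells held 101827 UMIs together. Among themselves the DP clusters were 0.28 (4 and 8), 0.66 (4 and 6) and 0.64 (6 and 8) apart, and cluster 11 was 1.61 to 1.67 from each. By this measure cluster 13 was further from clusters 4, 6 and 8 than they were from each other, and its distance to cluster 11 was smaller than theirs. The other clusters were not cut to 38 cells, so the part that sampling few cells has in these distances was not tested.

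The CD25+ TRP cells of cluster 13 lay further from every other group than its DP cells from DP clusters 4, 6 and 8. Among 47 groups of at least 20 cells of 1 cluster and population, the nearest was the CD25+ TRP cells of cluster 11 at 1.25 (1.23 to 1.27), followed by the CD4 SP cells of cluster 11 at 1.36 and the CD25+ TRP cells of cluster 7 at 1.39. The DP cells of their own cluster were at 1.42 (1.40 to 1.44), with a counting interval that overlapped those of the CD25+ TRP cells of cluster 7 and the DP cells of cluster 11 (1.44). Cluster 5, which holds the most CD25+ TRP cells (651), was at 1.58 with these. From the DP cells of cluster 13, its CD25+ TRP cells were further away than DP clusters 4, 6 and 8, while the counting intervals to them and to DP cluster 11 overlapped.

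**Figure D4:**
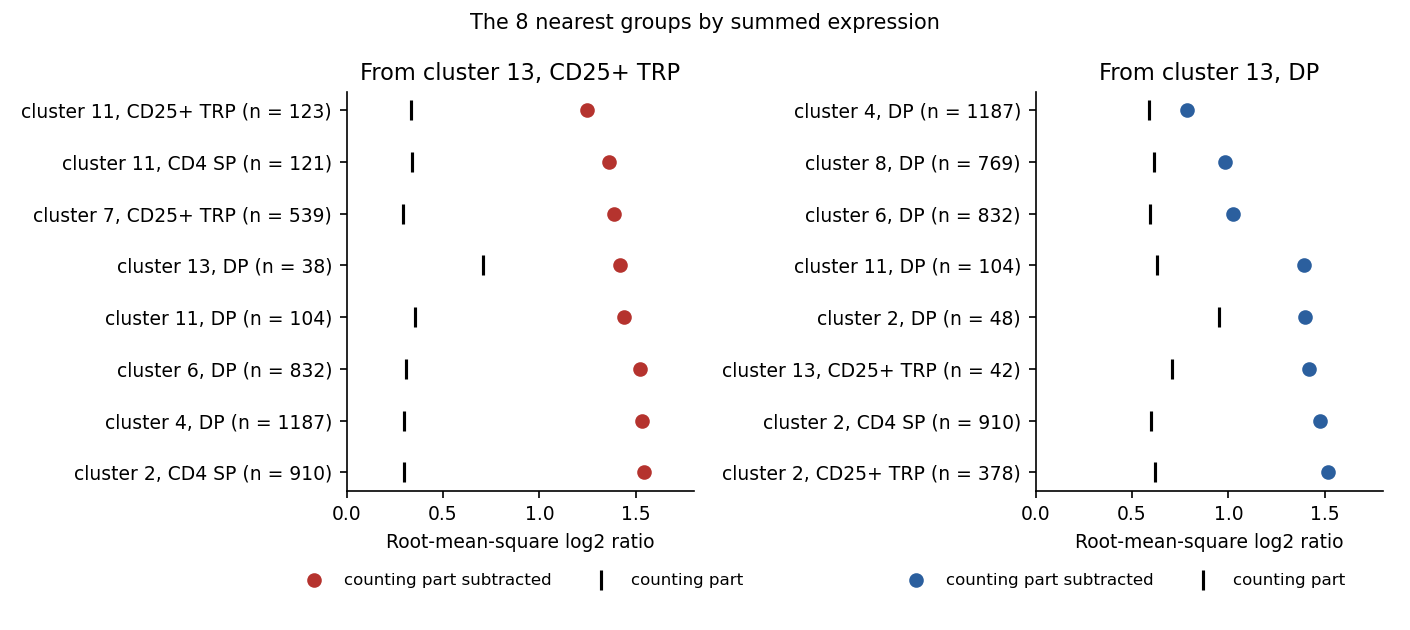
The 8 nearest groups to the CD25+ TRP cells (left, red) and to the DP cells (right, blue) of cluster 13, by root-mean-square log2 ratio of summed UMIs; dots give the distance with the counting part subtracted and black ticks the counting part. The DP cells are nearest to cluster 4 at 0.78, and the CD25+ TRP cells nearest to the CD25+ TRP cells of cluster 11 at 1.25.

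Sets of unnamed gene rows were chosen after seeing the data and only from cells outside cluster 13. On the first 2, its CD25+ TRP cells had medians between those of CD25+ TRP cells elsewhere and of DP clusters 4, 6 and 8. These groups were used to choose the rows and lie at the extremes by the choice, so a group left out would tend to fall between them. The DP cells of cluster 11, also left out, had a median of 0.745% on the second set, between as well. The position holds on each set alone and does not place the whole profile of the CD25+ TRP cells of cluster 13 between these groups. Their nearest group was 1.25 away. The DP-high set holds the 85 rows (2.22% of 3826) at least 8-fold higher in the DP cells of clusters 4, 6 and 8 than in the CD25+ TRP cells outside cluster 13. The CD25+ TRP-high set holds the 60 rows (1.57%) at least 8-fold higher the other way. The DP-high rows took a median of 1.02% of a cell's UMIs in the CD25+ TRP cells of cluster 13 (0.423 to 2.36 over cells), against 0.109% in the CD25+ TRP cells elsewhere. The median was 0.659% in the 11 cells of cluster 13 above 10000 UMIs and 1.15% in the other 31. The part of depth in this was not tested. Of the 42 cells, 38 exceeded 0.502%, the 99th percentile of the CD25+ TRP cells elsewhere, which by definition about 1% of those cells exceeded (25 of 2461). The rows were chosen for being low in those 2461 cells, so the limit is low by the choice. The count of 38 therefore does not measure how DP-like the cells are. Its DP cells had a median of 2.87% on these rows, against 3.58% in cluster 4, 3.42% in cluster 8, 1.64% in cluster 11 and 1.40% in cluster 6.

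The CD25+ TRP-high rows were low in the CD25+ TRP cells of cluster 13. They took a median of 0.195% of UMIs there (0.0286 to 0.852), against 1.18% in the CD25+ TRP cells elsewhere. The median was 0.258% in the 11 cells above 10000 UMIs and 0.171% in the other 31. Of the summed UMIs of the DP cells of cluster 13 these rows took 0.0766%, against 0.0443% in cluster 4, 0.0688% in cluster 6, 0.0442% in cluster 8 and 0.729% in cluster 11. By summed UMIs, the CD25+ TRP cells of cluster 13 had 7.46 times the DP-high share and 0.198 times the CD25+ TRP-high share of the CD25+ TRP cells elsewhere. The CD25+ TRP cells elsewhere were used to choose both sets, so the size of these factors is shaped by that choice. These factors moved with the fold that puts a row in a set, as given in the closing section, and kept their side of 1. The 2 CD25+ TRP cells with an α chain were alike in this: their DP-high rows took 0.918% and 0.772% of UMIs and their CD25+ TRP-high rows 0.330% and 0.306%.

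**Figure D5:**
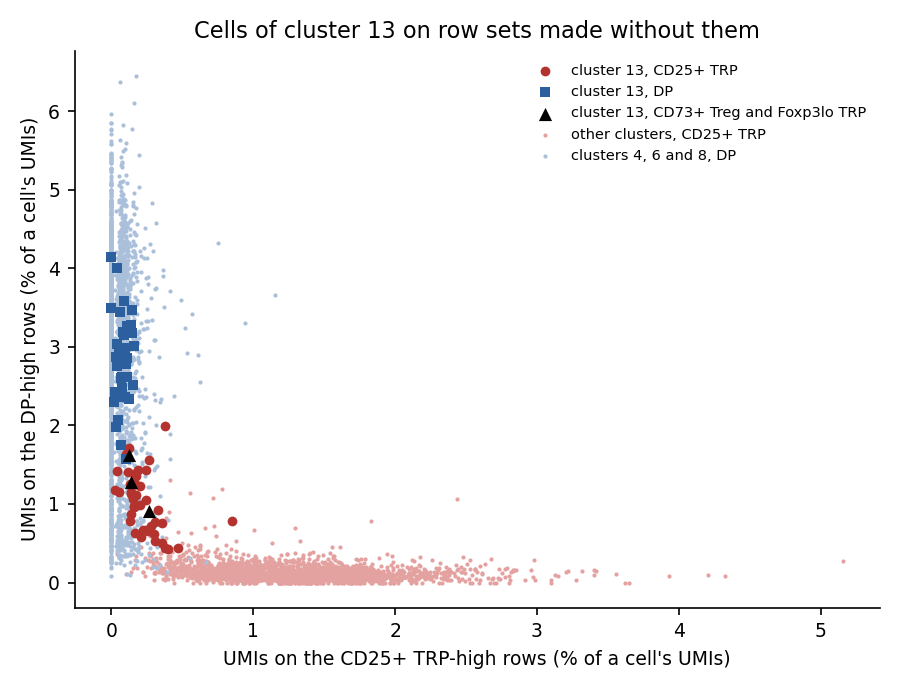
Percent of a cell's UMIs on the CD25+ TRP-high rows (x axis) and on the DP-high rows (y axis) for the cells of cluster 13 (large symbols) and for the CD25+ TRP cells of other clusters and the DP cells of clusters 4, 6 and 8 (small dots). The CD25+ TRP cells of cluster 13 have a median of 1.02% on the DP-high rows and 0.195% on the CD25+ TRP-high rows, off the band of the other CD25+ TRP cells.

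Both parts of the cluster were raised on the rows that mark cluster 11. The cluster 11-high set holds the 147 rows (6.11% of 2405) at least 4-fold higher in cluster 11 than in the other cells of its population, in DP and in CD25+ TRP cells alike. They took a median of 1.46% of UMIs in the CD25+ TRP cells of cluster 13 (0.347 to 4.32), against 3.11% in the CD25+ TRP cells of cluster 11 and 0.349% in the CD25+ TRP cells outside cluster 13. The median was 2.51% in the 11 CD25+ TRP cells of cluster 13 above 10000 UMIs and 1.19% in the other 31. The part of depth in this was not tested. In the DP cells of cluster 13 these rows took 1.39% (0.532 to 2.92), against 7.78% in the DP cells of cluster 11 and 0.332% to 0.391% in clusters 4, 6 and 8. By summed UMIs the factor was 2.56 for the CD25+ TRP cells of cluster 13 over those elsewhere, and 3.96 for its DP cells over those of clusters 4, 6 and 8. The rows were chosen for being low in DP and CD25+ TRP cells outside cluster 11. Those baselines are thus low by the choice, which shapes the size of the factors.

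Some unnamed rows were detected in most CD25+ TRP cells of the cluster and in few CD25+ TRP cells of other clusters. The rows given were picked for large differences from the 316 rows with at least 500 CPM in either of these groups. Row 10998 had 216 UMIs in the 42 cells (644 CPM) and 11 UMIs in the 2461 others (1.19 CPM). It was detected in 28 of the 42 cells (66.7%), against 0.203% of the others. Row 4379 had 185 UMIs (551 CPM) and was detected in 33 of the 42 cells (78.6%), against 11 UMIs (1.19 CPM) and 0.284% of the others. Both rows had 0 UMIs in the DP cells of cluster 13, which allows up to 29.5 CPM. On the low side, row 3931 had 1 UMI in the CD25+ TRP cells of cluster 13 and 6490 in the others (702 CPM), and row 3994 had 3 UMIs and 5766 (624 CPM).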

How the data were processed

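From the same pooled cells, libraries of transcripts, of hashtags and of TCRs (enriched for α) were made with the 10x Genomics 5' kit, per the labels' protocols, so the 3 GEO samples are 3 library types. Cell Ranger 3.1.0 and Seurat 3.1.1 are named in the submitters' processing notes, without their roles. Of cell filters, hashtag calling, clustering settings and doublet handling, the details were not given in the sources used here. A deposited matrix holds UMI counts for 14790 rows without gene names, and the second deposited matrix holds those counts on a natural log scale, as ln(1 + 10000 × count / cell total) (largest difference 6.22e-15). Metadata lines were joined to cells by order. The deposited clonotype identifier then matched that listed for the cell's barcode in 6982 of the 6982 cells that had one.

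Cells were grouped by deposited cluster and hashtag, where the class Treg was read as CD73- Treg. The planned naming of genes and check of cell type markers could not be applied to unnamed rows. No cells were removed. The planned counting correction was too small on simulated data with equal profiles and was replaced by the Poisson expectation at the observed depths. Intervals on distances come from counting alone. Zero counts allow up to 3 counts, where the exact intervals end at 0.151% for the CD4 SP and 0.809% for the CD73- Treg population. Scaling alternatives used edgeR 4.0.16 and DESeq2 1.42.0 in R 4.3.3, and the rest Python 3.11.15, NumPy 2.4.6, SciPy 1.17.1 and pandas 2.3.3. Segment coordinates are from GENCODE M21 (GRCm38). The members, lists and comparisons were chosen with earlier results of these data known.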

Additional observations from a re-analysis of the deposited data

How the results depend on the processing

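No paired analysis was possible because the labels give 1 pool and no replicate numbers. With 83 cells, 14 of them DP cells with a single α chain, counting error limits every share, and no replicate measures the spread between mice. Cluster 4 was the nearest DP cluster in 9 of 10 distance alternatives and cluster 11 the farthest in 9 of 10. The exception for both was the use of all cells of each cluster, which gave 1.19, 1.24, 1.31 and 1.08 for clusters 4, 6, 8 and 11. Cluster 8 was nearer than cluster 6 in 6 of 10. In the same order of clusters, a prior of 10 CPM gave 0.59, 0.75, 0.71 and 0.98, a limit of 20 CPM 1.04, 1.16, 1.22 and 1.28, and a limit of 200 CPM 0.74, 1.06, 0.86 and 1.49. Without subtraction of the counting part the distances were 0.98, 1.18, 1.16 and 1.53. Thinning each cell to 1000 UMIs gave 1.12, 1.39, 1.41 and 1.68, and the authors' natural log values 0.24, 0.27, 0.29 and 0.33. Median-of-ratios scaling moved clusters 4, 8 and 11 to 0.74, 0.90 and 1.47, and trimmed-mean scaling moved clusters 8 and 11 to 0.92 and 1.46. With the first-planned counting correction, 1/x + 1/y for counts x and y, clusters 4, 6 and 11 came to 0.82, 1.05 and 1.42. The causes were not tested.

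Without the 5% of cells with the most UMIs, the cluster held 1.09% of the CD25+ TRP population, against 1.68% as reported. Median UMIs and genes were 2616 and 1289 in its DP cells alone, and genes were 620.5 at 1000 and 367 at 500 UMIs per cell. With 4-fold and 16-fold row sets, chosen after seeing the data, the CD25+ TRP cells of cluster 13 had 2.82 and 19.3 times the DP-high share of those elsewhere, and 0.363 and 0.0932 times the CD25+ TRP-high share. For the cluster 11-high rows, limits of 2-fold and 8-fold were used in place of 4-fold. They put the DP cells of cluster 13 at 2.42 and 6.77 times clusters 4, 6 and 8, against 3.96 as reported. The CD25+ TRP cells came to 2.07 and 2.22 times those elsewhere, cluster 11 included, against 2.56. For cluster 13 itself, α recovery, TRAJ40 or higher use and the median TRAJ number stayed within their intervals under each alternative run. In cluster 6, matching depth to the DP cells of cluster 13 took TRAJ40 or higher use to 43.6% and α recovery to 80.3%, outside its intervals. In cluster 4 it took them to 67.2% and 36.7%, also outside its intervals over all depths, though the matched intervals overlapped those. Over all DP cells outside cluster 13, matching took TRAJ40 or higher use from 29.6% to 47.5%. Matching CD25+ TRP cells to the interquartile UMI range of the DP cells (2049 to 2968) left 1 cell in the cluster and was not used.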
